A study of Homo sapiens with 2 samples.

Results

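The genes described here are 10 genes of the tubulin system among the 50868 genes of the deposited table. They are the alpha-tubulin genes TUBA1A, TUBA1B, TUBA1C and TUBA4A, the beta-tubulin genes TUBB, TUBB2A, TUBB4B and TUBB6, the gamma-tubulin gene TUBG1, and TTC5, which encodes a factor that recognises newly made tubulin. They were taken by gene name, and the names were chosen with the difference in their reads between these same libraries known, so their changes are given as a description with no test. RNA-seq was performed on MOLM-13 (Molm13), a human acute myeloid leukemia (AML) cell line with the KMT2A::MLLT3 fusion, to ask which genes change when the netrin receptor UNC5B is over-expressed. 1 library came from cells with the control vector (Vector) and 1 library came from cells given UNC5B (OE-UNC5B). According to the methods, UNC5B was delivered by a lentivirus packaged in HEK-293T cells, from a construct with a CMV promoter, a FLAG tag, mCherry and a puromycin resistance gene, and cells were selected with puromycin. No clone was named, and both libraries are of cells in culture without further treatment. The libraries held 13715566 and 15637137 counted reads.

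UNC5B was at 0 reads in Vector and in OE-UNC5B alike, below a floor of 3 reads, which equals 0.222 and 0.189 CPM (counted reads scaled to library size). The values thus show no over-expression of UNC5B, so that every direction below rests on the label, and the treated sample is written as the library labelled OE-UNC5B. The AML markers CD33, FLT3, SPI1 and CEBPA were detected with 1775 to 7626 reads per library. Of markers of other cells, 5 of 6 megakaryocyte genes, 4 of 7 neuron genes, 4 of 6 endothelium genes, 3 of 6 fibroblast genes and 3 of 4 genes chosen for HEK293 had 0 reads in both libraries. The summed markers reached at most 3.26 CPM in any of these lists except endothelium (121 and 92.7 CPM, nearly all from PECAM1, which leukocytes also express). Mitochondrial reads made up 6.78% of Vector and 5.66% of the library labelled OE-UNC5B. No difference could be checked against replicates, as each group is 1 library, and every interval below covers counting error only. In bulk RNA, fewer cells of a type and less RNA per cell cannot be told apart.

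Alpha- and beta-tubulin join as a dimer, and the dimers polymerise into microtubules, which form the mitotic spindle, the tracks of kinesin and dynein motors and the core of cilia. Gamma-tubulin sits at the base of a microtubule and starts its growth as part of a ring complex. Cells limit tubulin production by autoregulation: when free dimer is plentiful, TTC5 binds the first residues of alpha- or beta-tubulin as they leave the ribosome, and, through SCAPER, the CCR4-NOT deadenylase is brought to the mRNA, which is then degraded. The signal is Met-Arg-Glu-Ile (MREI) at the start of beta-tubulins and Met-Arg-Glu-Cys (MREC) at the start of alpha-tubulins.

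The first 30 coding bases of the main transcripts are shown because this signal lies in them and because it divides the genes into those that carry it and those that do not. Capitals mark the codons of the first residues. The sequences were read from the GENCODE 44 transcripts on GRCh38.
TUBA1A: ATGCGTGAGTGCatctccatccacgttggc
TUBA1B: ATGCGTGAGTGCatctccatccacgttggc
TUBA1C: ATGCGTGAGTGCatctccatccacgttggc
TUBA4A: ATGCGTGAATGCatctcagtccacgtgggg
TUBB: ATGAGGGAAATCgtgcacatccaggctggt
TUBB2A: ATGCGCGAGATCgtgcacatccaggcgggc
TUBB4B: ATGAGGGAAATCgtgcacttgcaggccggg
TUBB6: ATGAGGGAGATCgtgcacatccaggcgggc
TUBG1: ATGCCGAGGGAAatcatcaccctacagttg
TTC5: ATGATGGCTGATgaagaggaagaagtcaag
TUBG2: ATGCCCCGGGAGatcatcaccctgcagctg
TUBD1: ATGTCAATTGTAacagtgcaacttggtcag
TUBE1: ATGACCCAGTCGgtggtcgtacaggtcggc
TUBA1A, TUBA1B and TUBA1C were identical over these 30 bases, and TUBA4A encodes the same MREC start with another codon. The beta-tubulin genes of the set all encode MREI, with different codons for arginine and glutamate. TUBG1 begins MPRE and TTC5 begins MMAD, so neither carries the signal. TUBG2, TUBD1 and TUBE1 encode gamma-, delta- and epsilon-tubulin and are shown as the tested tubulin genes outside the set without the signal, with MPRE, MSIV and MTQS at the start. Among 19580 main coding sequences of GENCODE 44, 19 begin with the signal, 9 with MREC and 10 with MREI, and all 19 are alpha- or beta-tubulin genes.

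Of the 10 genes, 9 had at least 10 reads over both libraries, which was the minimum for a fold change, and TUBB2A did not. A gene was counted as lower or higher when it differed by at least 2-fold after scaling with TMM factors, which were 0.984 and 1.02. Of these 9 genes, 5 were lower by 2-fold in the library labelled OE-UNC5B (TUBA1A, TUBA1C, TUBA4A, TUBB and TUBB4B) and 0 were higher. Over the 15384 genes with enough reads, 4.79% were lower by 2-fold and 5.15% were higher. With a minimum of 50 reads the background was 2.42% lower and 2.92% higher, and the set still gave 5 and 0 of 9. At 1.5-fold, 7 of 9 were lower and 0 were higher, against 12.5% and 12.9% of all genes. The genes were chosen on this contrast, so these shares are background only. The median log2 fold change of the 9 genes was -1.003, and that of all genes tested was -0.01. The genes just inside the 2-fold line were TUBB at -1.003 and TUBA1A at -1.03, and the gene just outside was TUBG1 at -0.95. With DESeq2 size factors in place of TMM the count was 4, without TUBB (-0.998). With library totals, TUBA1A (-0.98) and TUBB (-0.96) were short of the line and the count was 3.

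**Figure D1:**
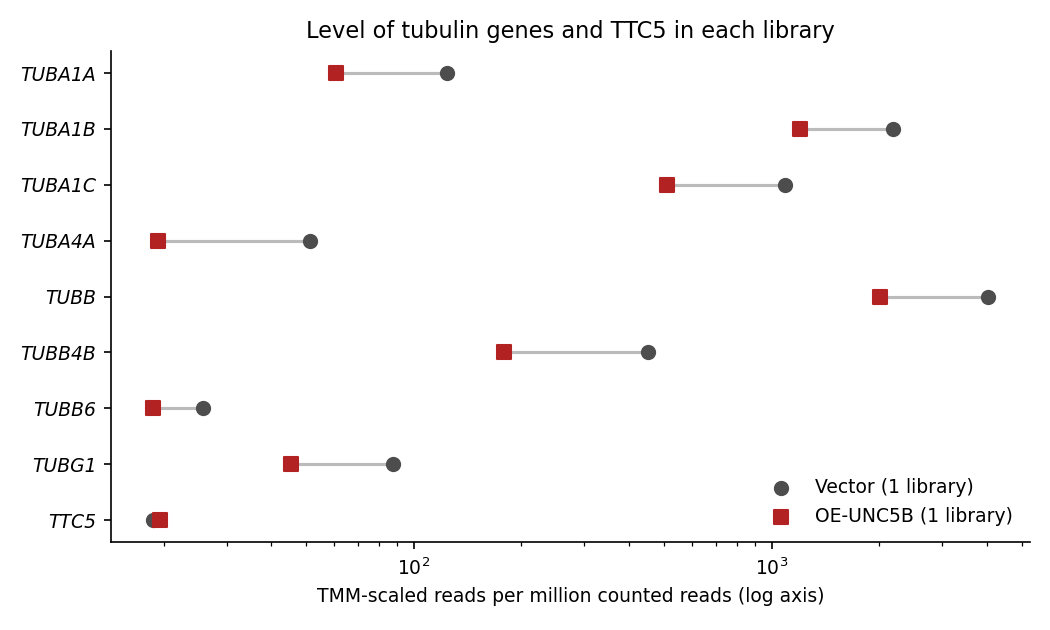
CPM, scaled with TMM, on a log axis for the 9 genes with at least 10 reads. Circles are the Vector library and squares the library labelled OE-UNC5B, 1 library each, and the squares lie to the left for every gene except TTC5, from 4026 to 2008 for TUBB down to 18.7 and 19.6 for TTC5.

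All alpha-tubulin genes of the set were at lower levels in the library labelled OE-UNC5B. TUBA1B (chr12:49127782-49131397, minus strand) encodes the most abundant alpha-tubulin of these cells and had 29397 reads in the Vector library and 19111 in that labelled OE-UNC5B. Its FPKM, reads scaled to gene length and to the counted reads, were 263 and 150.1. The log2 fold change was -0.86 (95% interval -0.88 to -0.83), or 1.81-fold lower, so TUBA1B was short of the 2-fold line while carrying more alpha-tubulin reads than the other three together.

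TUBA1C (chr12:49188736-49274603, plus strand), another broadly expressed alpha-tubulin gene of the same cluster, had 14704 and 8109 reads and an FPKM of 118 and 56.9. It was 2.14-fold lower, with a log2 fold change of -1.10 (-1.13 to -1.06). TUBA1A (chr12:49184796-49189324, minus strand) is known as the main alpha-tubulin of developing neurons, and it was a minor isotype here, with 1666 and 963 reads and an FPKM of 14.8 and 7.52. Its log2 fold change was -1.03 (-1.14 to -0.91), and the interval crosses the 2-fold line.

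TUBA4A (chr2:219249711-219278170, minus strand) is the alpha-tubulin whose gene does not encode the terminal tyrosine that other isotypes carry. It had 693 and 306 reads and an FPKM of 7.55 and 2.92. At 2.67-fold lower, with a log2 fold change of -1.41 (-1.61 to -1.22), it was the lowest of the 9 genes, and its interval lies apart from those of TUBA1A, TUBA1B and TUBA1C. The 4 alpha-tubulin genes summed to 46460 and 28489 reads, or 0.339% and 0.182% of all counted reads. The sum was 1.92-fold lower, with a log2 fold change of -0.94 (-0.96 to -0.92).

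The beta-tubulin genes were also lower, over a wider range. TUBB (chr6:30720201-30725426, plus strand), the general beta-tubulin gene, had 54321 reads in the Vector library and 31920 in that labelled OE-UNC5B, the most of the set in both. Its FPKM were 964 and 497, and it was 2.00-fold lower, with a log2 fold change of -1.003 (-1.02 to -0.98). The interval spans the 2-fold line, so the counting error alone leaves the side undecided.

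TUBB4B (chr9:137241213-137243707, plus strand), a broadly expressed beta-tubulin that is also a main isotype of cilia, had 6094 and 2849 reads and an FPKM of 125 and 51.1. It was 2.52-fold lower, with a log2 fold change of -1.33 (-1.40 to -1.27), and so further down than TUBB. TUBB6 (chr18:12307669-12344320, plus strand) is a more divergent beta-tubulin. It had 347 and 296 reads and an FPKM of 2.33 and 1.74, with a log2 fold change of -0.47 (-0.69 to -0.24), the smallest decrease of the tubulin genes of the set. TUBB2A (chr6:3153669-3157526, minus strand), an isotype known from brain, had 1 read in the Vector library and 0 in that labelled OE-UNC5B, both under the floor of 3 reads, so no fold is given.

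The beta-tubulin genes summed to 60763 and 35065 reads, or 0.443% and 0.224% of counted reads. The sum was 2.04-fold lower, with a log2 fold change of -1.03 (-1.05 to -1.01), which lies apart from the interval of the alpha sum by counting error. Alpha- and beta-tubulin together made up 0.782% of the reads in the Vector library and 0.406% in that labelled OE-UNC5B.

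**Figure D2:**
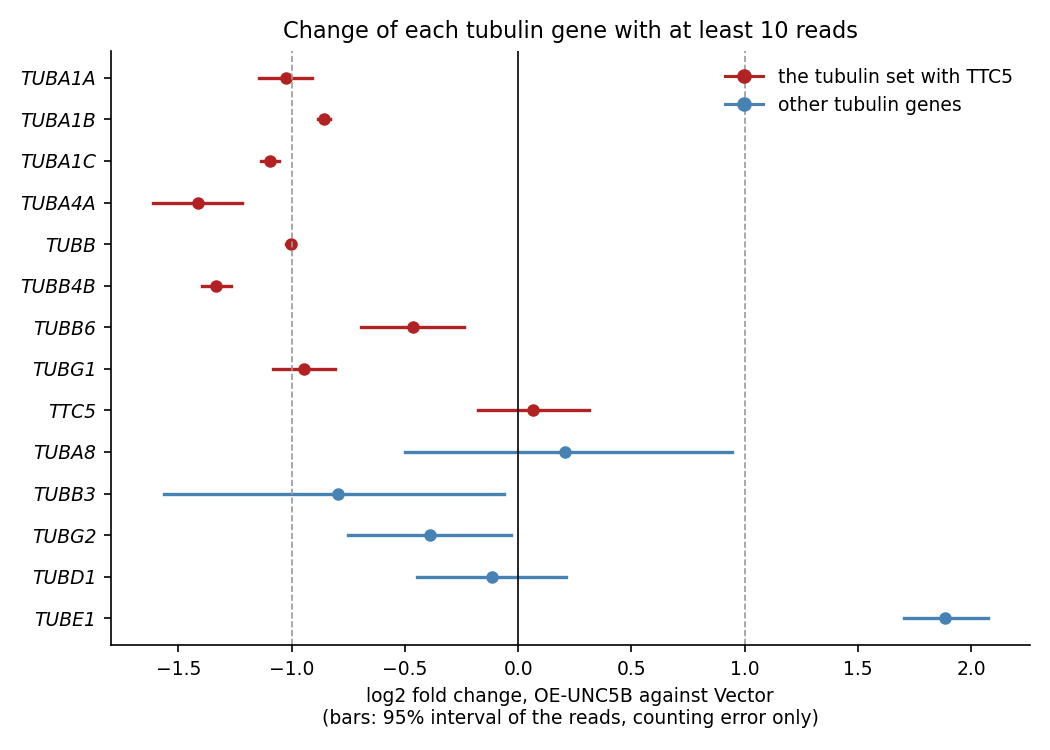
Log2 fold change of each tubulin gene and TTC5, with 95% intervals of the reads as bars and dashed lines at 2-fold. Of the set (red), 8 genes lie left of 0, from -1.41 for TUBA4A to -0.47 for TUBB6, while TUBE1 among the other tubulin genes (blue) lies at 1.88.

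Isotype shares were compared within each class. TUBA1B made up 63.3% of the alpha-tubulin reads in Vector (95% exact binomial interval 62.8 to 63.7) and 67.1% in the library labelled OE-UNC5B (66.5 to 67.6). TUBA1C made up 31.6% and 28.5%, TUBA1A 3.59% and 3.38%, and TUBA4A 1.49% and 1.07%. The main isotype of each class therefore held a larger share in the library labelled OE-UNC5B. TUBB made up 89.4% (89.2 to 89.6) of the beta-tubulin reads in Vector and 91.0% (90.7 to 91.3) in the other library. TUBB4B made up 10.0% and 8.12%. TUBB6 was the minor isotype whose share was larger, at 0.571% (0.513 to 0.634) and 0.844% (0.751 to 0.946).

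The order of the levels depends on the length used, and no spread between replicates is known for it. By deposited FPKM in Vector the order was TUBB, TUBA1B, TUBB4B, TUBA1C, TUBG1, TUBA1A, TUBA4A, TUBB6 and TTC5. The lengths behind these FPKM, obtained from reads and FPKM, were 8185 bases for TUBA1A, 8144 for TUBA1B and 3563 for TUBB4B, which is longer than the genes themselves in the same table (4529, 3616 and 2495 bases). The same held for 9.95% of the 11082 genes with at least 50 reads in Vector. The main transcripts of these 3 genes are 1672, 1627 and 1563 bases long. Scaled to the main transcript instead, TUBB was at 1575 reads per kb of transcript, in CPM, and TUBA1B at 1317, and TUBA1C (380) came before TUBB4B (284) and TUBA1A (72.6) before TUBG1 (53.4). The ratio of beta- to alpha-tubulin in Vector was 2.71 by summed FPKM, 1.31 by reads and 1.04 per kb of main transcript. In the library labelled OE-UNC5B these ratios were 2.53, 1.23 and 0.956, each lower than in Vector. Fold changes between libraries do not depend on these lengths, since the length behind each FPKM was the same in both.

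TUBG1 (chr17:42609676-42615234, plus strand), the main gamma-tubulin gene, had 1177 reads in the Vector library and 720 in that labelled OE-UNC5B, and an FPKM of 24.1 and 12.9. It was 1.93-fold lower, with a log2 fold change of -0.95 (-1.08 to -0.81). Its value lay between those of TUBA1B and TUBA1A. TTC5 (chr14:20256558-20305994, minus strand) had 252 and 311 reads and an FPKM of 1.55 and 1.68. Its log2 fold change was 0.07 (-0.18 to 0.31), and the interval includes 0.

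**Figure D3:**
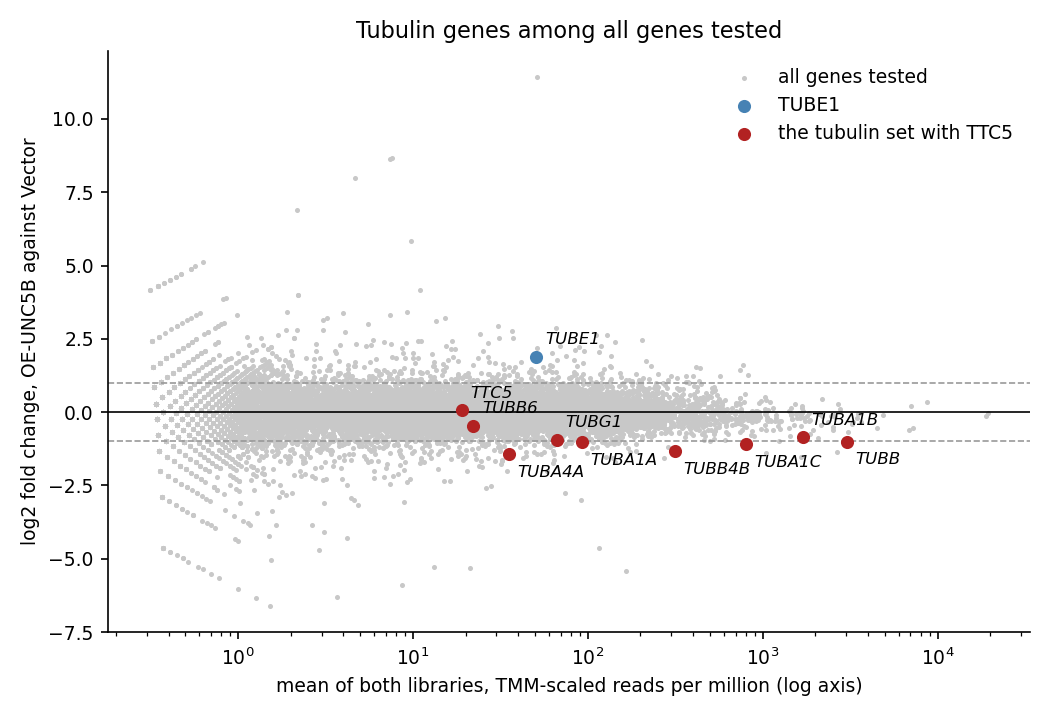
Log2 fold change against the mean level of both libraries (CPM, log axis) for the 15384 genes tested (grey), with the 9 tested genes of the set (red) and TUBE1 (blue) marked and dashed lines at 2-fold. TUBB, TUBA1B and TUBA1C lie among the most expressed genes and all 3 lie below 0, at -0.86 to -1.10.

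A list of 14 further tubulin genes was examined, all in the table, of which 7 had 0 reads in both libraries, among them TUBA3C, TUBAL3 and the megakaryocyte isotype TUBB1. TUBB2B and TUBB4A had 2 and 1 reads in Vector and 0 in the other library. TUBA4B, which is not in the list, had 0 and 2 reads. Of the 5 tested, 1 was higher by 2-fold and 0 were lower, beside 5.15% and 4.79% of all genes. TUBE1 had 292 reads in the Vector library and 1272 in that labelled OE-UNC5B, and it was 3.69-fold higher, with a log2 fold change of 1.88 (1.70 to 2.08). TUBE1 thus went against the direction of the set, with a transcript that shares no 75-base window with another gene. TUBD1, the delta-tubulin that works with TUBE1 at centrioles, had 150 and 163 reads (-0.12, -0.45 to 0.21). TUBG2, the second gamma-tubulin gene, had 138 and 124 reads (-0.39, -0.75 to -0.03).

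The remaining tested tubulin genes carry the autoregulation signal at low levels. TUBB3, the beta-tubulin of neurons, had 40 and 27 reads (-0.79, -1.56 to -0.06), and TUBA8 had 30 and 41 reads (0.21, -0.50 to 0.94). Of the 19 genes with the signal, 7 had 0 reads in both libraries, 3 had 1 to 9 reads and 9 were tested. Of those 9 genes, 8 lay below 0, TUBA8 being the exception, and 5 were lower by 2-fold. All 5 and 7 of the 9 belong to the set chosen on this contrast, so these counts follow from the choice, and the background of 4.79% is not read against them. The signal genes outside the set, TUBB3 and TUBA8, lay on opposite sides of 0.

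The other parts of the autoregulation pathway were listed as well. All 11 genes listed for SCAPER and the CCR4-NOT complex were tested, and 0 were past 2-fold, beside 4.79% lower and 5.15% higher of all genes. The median log2 fold change was 0.05. CNOT1, the scaffold of the complex, had 5587 and 7996 reads (0.28). CNOT7, a deadenylase subunit, had 2690 and 3122 reads (-0.02). CNOT6L, another deadenylase subunit, had the highest value of the list, with 2407 and 5145 reads and a log2 fold change of 0.86 (0.79 to 0.93). SCAPER itself had 166 and 247 reads (0.34, 0.05 to 0.63).

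Most genes of the folding machinery lay slightly below 0, and 1 of them was past 2-fold. New tubulin is folded by the chaperonin CCT with prefoldin, and the TBC cofactors then assemble the dimer. All 23 genes of the list were tested, 21 lay below 0, and the median was -0.34, against 7777 of 15384 and -0.01 for all genes tested. Of all genes, 4.79% were lower and 5.15% higher by 2-fold. VBP1, a prefoldin subunit, was the member past 2-fold, with 1037 and 604 reads and a log2 fold change of -1.02 (-1.16 to -0.87), and it was no longer past 2-fold with library totals. TCP1, a CCT subunit, had 7578 and 5374 reads (-0.73). CCT5 had 10570 and 11237 reads (-0.15), and CCT8, one of the 2 genes above 0, had 8558 and 11027 reads (0.13). Most genes of the S phase list (36 of 43) and of the G2/M list (39 of 53) lay below 0 as well. With a length and GC content trend subtracted, the medians were -0.27 for folding, -0.35 for S phase and -0.28 for G2/M.

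In the gamma-tubulin ring complex list, 21 genes were tested and 0 were past 2-fold, beside 4.79% lower and 5.15% higher of all genes. The median was 0.03. The list holds HAUS and scaffold genes beside those of the ring itself, so its median is not that of the ring alone. TUBGCP3 and TUBGCP6, which form the ring with gamma-tubulin, had 1729 and 2244 reads (0.14) and 1393 and 1679 reads (0.03). PCNT, the centrosome scaffold pericentrin, had 1831 and 2639 reads (0.29). Of the 21 genes, 8 lay below 0 and 13 above, from -0.37 to 0.97, and with library totals 1 was higher by 2-fold. The highest value was that of AKAP9, a large scaffold protein of the centrosome and Golgi, with 777 and 1794 reads, named after its value was seen.

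Of 27 genes for microtubule-associated proteins tested, 1 was higher and 1 lower by 2-fold, beside 5.15% and 4.79% of all genes, and the median was 0.12. MAP1S was higher, with 265 and 903 reads and a log2 fold change of 1.53 (1.33 to 1.74). CAMSAP2, which caps microtubule minus ends, was lower with few reads, 23 and 5, and did not enter with a minimum of 50 reads. STMN1, the dimer-sequestering protein stathmin, had 4521 and 3580 reads (-0.57). CKAP5, a microtubule polymerase, had 2607 and 3831 reads (0.32), and MAPRE1, an end-binding protein, had 2671 and 2408 reads (-0.39).

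Of 33 motor genes tested, 1 was higher and 1 lower by 2-fold, beside 5.15% and 4.79% of all genes, with a median of 0.14. The kinesin KIF21B was higher, with 1557 and 5497 reads and a log2 fold change of 1.58. KIF1A was lower with 15 and 4 reads, and did not enter with a minimum of 50 reads. The dynein heavy chain DYNC1H1 had 2985 and 4974 reads (0.50), and KIF5B, a heavy chain of conventional kinesin, had 2548 and 3529 reads (0.23). Of 15 genes for enzymes that modify tubulin, 0 were past 2-fold, beside these same shares of all genes (5.15% higher and 4.79% lower), and the median was -0.11. TTLL12 had 3152 and 2731 reads (-0.44), AGTPBP1, which trims glutamates from tubulin, had 677 and 1115 reads (0.48), and the deacetylase SIRT2 had 835 and 928 reads (-0.08).

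The actin cytoskeleton was used for comparison as the other main filament system. Of 43 actin genes tested, 0 were past 2-fold, beside 4.79% lower and 5.15% higher of all genes, and the median was -0.15. ACTB, cytoplasmic beta-actin, had 39954 and 33168 reads (-0.50). TMSB4X, which binds actin monomers, had 35984 and 23058 reads (-0.88, -0.90 to -0.85), the lowest value of the list. LCP1, the leukocyte plastin that bundles actin, had 22550 and 27583 reads (0.05).

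Tubulin transcripts can vary with the cell cycle, so S phase and G2/M genes were counted beside them. TUBB4B is itself in wide use as a G2/M gene and was left out of that list. Of 43 S phase genes tested, 3 were lower by 2-fold, 0 were higher, beside 4.79% and 5.15% of all genes, and the median was -0.23 (-0.35 with the length and GC content trend subtracted). These were CCNE2, with 1941 and 872 reads (-1.39), the DNA glycosylase UNG, with 1085 and 495 reads (-1.37), and the flap endonuclease FEN1, with 2718 and 1556 reads (-1.04). The count was 2 with library totals, with the FPKM (0.1 or 1 added) and with that trend subtracted. The S phase genes with the most reads were the helicase subunit MCM4 (14620 and 10126, -0.77), the sliding clamp PCNA (8057 and 5458, -0.80) and ATAD2 (6689 and 7860, 0.00).

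Of 53 G2/M genes, 1 was lower by 2-fold and 0 were higher, beside 4.79% and 5.15% of all genes. The median was -0.24 (-0.14 and -0.13 with the FPKM and 0.1 or 1 added). UBE2C, a ubiquitin-conjugating enzyme of mitotic exit, had 574 and 295 reads (-1.20). TOP2A had 8919 and 10484 reads (0.00), HMGB2 had 5563 and 4629 reads (-0.50) and SMC4 had 3922 and 5884 reads (0.35). Summed, the S phase list was at 7036 and 5531 CPM and the G2/M list at 6508 and 6107 CPM. The part of the cell cycle genes in the tubulin values was not tested.

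**Figure D4:**
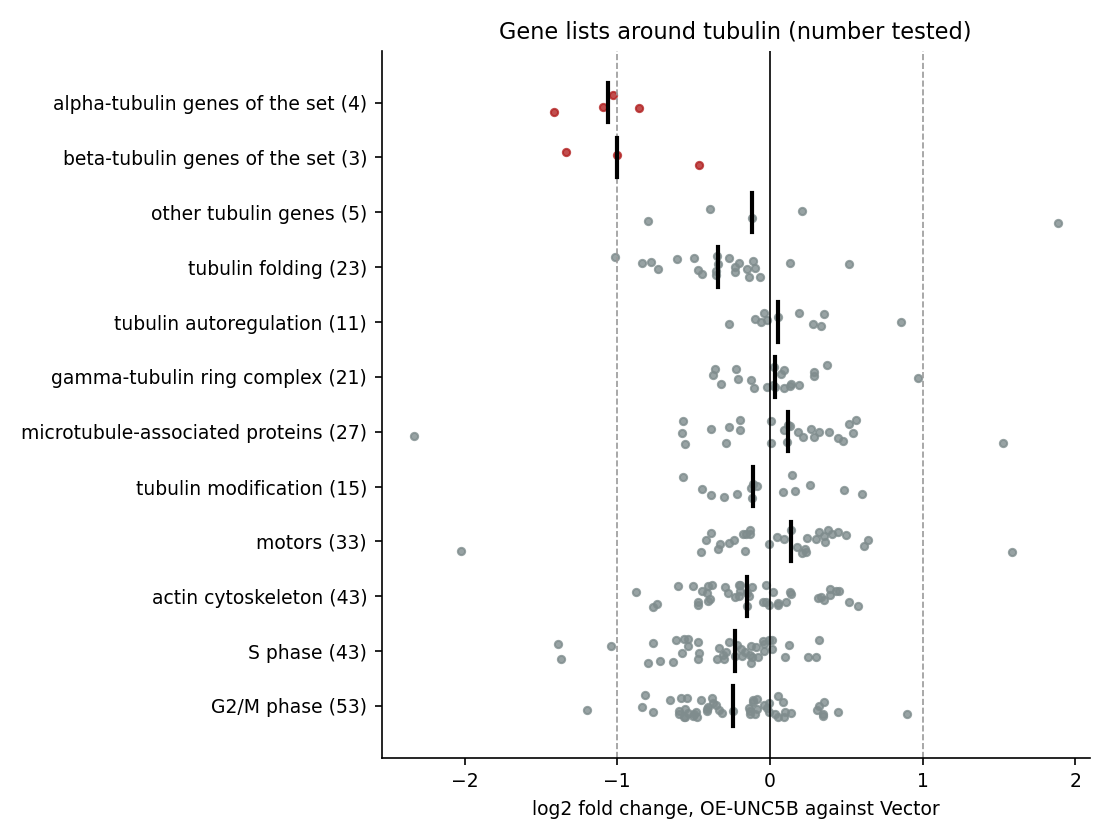
Log2 fold change of every tested gene (points) in each list, with the number tested in parentheses, the median as a black bar and dashed lines at 2-fold. The medians of the alpha- and beta-tubulin genes of the set lie at -1.06 and -1.003, those of the other lists shown between -0.34 (tubulin folding) and 0.14 (motors).

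Abundant genes with a change like that of the summed tubulin genes were looked up as a description, since the set was chosen on this difference. Outside the set, 2078 protein-coding genes had at least 100 CPM in Vector, of which 32 (1.54%) were lower by 2-fold and 28 lay within 0.1 of the summed alpha- and beta-tubulin genes (-0.99) on the log2 scale. The 5 closest were PPP1R27 (8940 and 5280 reads), the ATP synthase subunit ATP5MF (1392 and 832 reads), the splicing factor subunit SF3B5 (2682 and 1605 reads), the Golgi protein GOPC (2166 and 1270 reads) and DAD1, a subunit of the oligosaccharyltransferase (1448 and 848 reads). Likeness here is the difference of log2 fold changes over only 2 libraries, at most 0.02 for these 5 genes.

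The promoters of the 10 genes, TTC5 and TUBB2A included, were searched for known elements, in RefSeq windows of GRCh38.p14 from 250 bases before to 50 bases after the start. All 10 genes had a window. The CCAAT box (CCAAT on either strand) was in 6 of the 10 (TUBA1A, TUBA1C, TUBB, TUBB4B, TUBB6 and TUBG1) and in 34.6% of 35116 human promoters. The GC box (GGGCGG on either strand) was in 7 of the 10 (TUBA1B, TUBA1C, TUBA4A, TUBB, TUBB2A, TUBB6 and TUBG1) and in 45.0% of all. TATAAA was in 2 of the 10 (11.5% of all) and TTTGAA, the core of the cell cycle homology region, in 3 of the 10 (15.2%). TGATGNAAT, an element of C/EBP-ATF factors, was in 0 of the 10 (0.991% of all). A match of letters is a description and says nothing on binding. The 250 bases upstream of the start are shown for TUBB4B and TUBA1B, the most and the least decreased of the 5 alpha- and beta-tubulin genes with the most reads, with matches to any of these elements in capitals.
TUBB4B (chr9:137241037-137241286, plus strand): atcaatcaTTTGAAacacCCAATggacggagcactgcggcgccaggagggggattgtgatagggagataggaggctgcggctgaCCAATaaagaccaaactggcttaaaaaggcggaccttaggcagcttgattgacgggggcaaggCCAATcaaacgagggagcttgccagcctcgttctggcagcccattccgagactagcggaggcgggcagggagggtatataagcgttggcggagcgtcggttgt
TUBA1B (chr12:49131396-49131645, minus strand): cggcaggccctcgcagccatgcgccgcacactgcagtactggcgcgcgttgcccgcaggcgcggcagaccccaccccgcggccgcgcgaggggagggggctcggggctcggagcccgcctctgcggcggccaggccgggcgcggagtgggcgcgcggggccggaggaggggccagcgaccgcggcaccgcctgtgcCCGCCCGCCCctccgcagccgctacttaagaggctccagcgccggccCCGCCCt
TUBB4B holds 3 CCAAT boxes and no GC box, and TUBA1B holds 3 GC boxes and no CCAAT box. This does not carry over to the other genes. TUBA4A, with the largest decrease of the set, holds 4 GC boxes and no CCAAT box. TUBB6, with the smallest decrease of its tubulin genes, holds 1 CCAAT box and 6 GC boxes. A relation between these elements and the fold changes was not tested.

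How far the transcripts are found in other genes as well, on either strand, differed between the genes. The coding sequences of TUBA1A and TUBA1B are 97.2% identical and those of TUBA1B and TUBA1C 96.8%. Of 75-base windows of the main transcript, those found in no other gene made up 22.8% for TUBA1B, 63.5% for TUBA1C, 67.0% for TUBA1A and 68.8% for TUBA4A. Within the class, TUBA1B shared 26.2% of its windows with TUBA1A and as many with TUBA1C, while 66.6% were shared with the antisense TUBA1B-AS1. Those of TUBA4A were shared with STK16 (28.1%) and TUBA4B (3.19%). Of the beta-tubulin genes, windows in no other gene made up 76.0% for TUBB, 91.0% for TUBB4B, 100% for TUBB6 and 40.5% for TUBB2A. TUBB shared its windows with an antisense lncRNA (19.0%) and the pseudogenes TUBBP1 (8.73%) and TUBBP2 (0.246%), and with no other beta-tubulin gene of the set. TUBG1 shared 20.4% of its windows with TUBG2. With 150-base windows less was shared: TUBA1B shared 7.17% with TUBA1A and 11.98% with TUBA1C, TUBA1A had 92.0% in no other gene, and TUBG1 shared 6.24% with TUBG2. The methods give a sequence length above either window, but it is unclear whether this is the length of reads or of library fragments. How reads that match several of TUBA1A, TUBA1B and TUBA1C were divided is not stated, and the alpha sum does not depend on how reads are divided among them.

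Some genes overlap others, and whether counting used strand is not stated. TUBA1A and TUBA1C lie on opposite strands and share 345 exonic bases. TUBA1B shares 1571 of its 3574 exonic bases with the antisense TUBA1B-AS1, which had 11 and 5 reads. TUBA4A shares 17.0% with STK16 (308 and 314 reads), and TUBB6 shares 21.2% with AFG3L2 (934 and 1208 reads), neither of which was lower by 2-fold. The overlaps of TUBG1 with RETREG3 (4.03%, 483 and 424 reads), of TUBB4B with FAM166A (6.09%, 0 reads in both) and of TUBB with MDC1 (13 bases, 2203 and 2990 reads) are small, as are those of TUBB2A with BPHL (82 bases, 26 and 39 reads) and of TUBA4A with TUBA4B (112 bases, 0 and 2 reads).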

How the data were processed

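RNA-seq of MOLM-13 cells was analysed, with 1 Vector and 1 OE-UNC5B library grouped by the labels. The deposited table gives, for each gene, the authors' unnormalized read count and their FPKM, which is scaled to the counted reads. The submitters' processing notes name GRCh38, bcl2fastq 2.19, HISAT2 2.0.4 and StringTie 1.3.0, without roles. The counting tool, the annotation release, the treatment of reads with several matches and the use of strand are not given in the sources used here. Of its 50868 genes, 28730 were at 0 in both libraries.

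TMM factors were computed with edgeR 4.0.16 in R 4.3.3. A gene is called tested where a log2 fold change was computed, which took a total of 10 reads, and 0.5 reads were added to each count. The median over tested genes was 269.5 reads in Vector and 316 in OE-UNC5B. The 95% intervals follow Clopper and Pearson (scipy 1.17.1). Since each group is 1 library, no test of the conditions could be fitted, edgeR's quasi-likelihood test included, so no p-value is given and calls are by fold alone. The calculation was checked on simulated counts drawn with counting error only, so differences between replicates were not part of that check. Gene models and coding sequences came from GENCODE 44, in which 49659 gene identifiers were found, and promoters from RefSeq (GRCh38.p14). Tables and figures were made with pandas 2.3.3, numpy 2.4.6 and matplotlib 3.10.9.

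The 10 genes, the lists and the rule for named genes were chosen with earlier results of these data known. The rule names the 10 genes, other tubulin genes with at least 10 reads, the genes past 2-fold (up to 6) and the 3 with the most reads in each list, UNC5B, genes that overlap the 10 genes, and the 5 abundant genes closest in fold change. SCAPER, some tubulin genes with fewer reads, pseudogenes and cell type markers were named besides it, after their values were seen. Overlapping genes without a symbol are not named. As alternatives, counts were scaled by library totals or by DESeq2 1.42.0 size factors, 2 reads were added, the filter was dropped or raised to 50 reads, and FPKM of at least 1 were used with 0.1 or 1 added. Further alternatives were a length and GC content trend subtracted, a fold of 1.5, protein-coding genes alone, and sums with the other genes and pseudogenes of a class.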

Additional observations from a re-analysis of the deposited data

How the results depend on the processing

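Of the 5 genes of the set past 2-fold, none changed direction under the alternatives run, and genes outside the set were not followed singly. Of 72 values of single genes under the alternatives 59 moved by less than the interval of the reads and 13 moved by more, and of 260 values of lists (counts and medians) 230 stayed within 1.5 times the count or 0.1 of the median and 30 did not. The count of genes of the set lower by 2-fold was 3 in place of 5 with library totals, with the FPKM (0.1 or 1 added) and with the length and GC trend subtracted, 4 with DESeq2 size factors, without TUBB (-0.998), and 6 with no filter. TUBB and TUBA1A lie near the 2-fold line, with ranges of -1.003 to -0.95 and -1.03 to -0.89. The median of the set was -0.96 with library totals, -0.96 and -0.89 with the FPKM, and -0.97 with the trend subtracted. The alpha sum was -0.89 with library totals, -0.89 with the FPKM and 0.1 added, and -0.89 with 1 added. The beta sum was -0.98, -0.99 and -0.99 in that order. With the other genes and pseudogenes of the class added, the sums were -0.94 and -1.04. TTC5 ranged from -0.06 to 0.11, with an interval that included 0 in the scaled counts, so no direction is given for it.

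Counts over all genes depended on the filter and on the value added. Genes lower and higher by 2-fold were 737 and 792, and 3079 and 2886 with no filter, 297 and 359 with at least 50 reads, 281 and 392 with 0.1 added to the FPKM, and 130 and 165 with 1 added. At 1.5-fold they were 1923 and 1991, and among protein-coding genes alone 511 were lower and 469 higher by 2-fold. Library totals moved the median of all genes from -0.01 to 0.04.

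There was no second replicate to leave out. No paired analysis was possible because each group is 1 library. Depth limits TUBB2A, TUBB3 and TUBA8, whose intervals are wide or absent.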

Other observations

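Tubulin pseudogenes were examined after the values of the genes were seen. Of 38 genes in the table that GENCODE 44 lists as tubulin pseudogenes, 7 had reads, and their sum was 831 reads in the Vector library and 183 in that labelled OE-UNC5B. TUBBP1, a processed copy of beta-tubulin, gave most of the sum in Vector, with 557 reads. It had 16 in the library labelled OE-UNC5B, where TUBAP2 gave most. TUBBP1 had a log2 fold change of -5.31 (95% interval of the reads -6.18 to -4.65). It shares 16.9% of its 75-base windows with TUBB, and it was singled out after its value was seen. TUBAP2 had 236 and 148 reads (-0.91, -1.22 to -0.61) and TUBBP2 had 31 and 16 reads (-1.17). Adding all pseudogenes and other genes of the class moved the beta sum from -1.03 to -1.04. TUBA3FP, which was not found in GENCODE 44 and is in neither count, had 1 read in each library.

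Of the 10 AML markers, 6 lay above 0 and 4 below, with a median of 0.15. The granule genes MPO (3363 and 1553 reads, -1.35) and LYZ (51742 and 23700 reads, -1.36) were the 2 lower by 2-fold. No marker was higher by 2-fold, and over all genes tested 4.79% were lower and 5.15% higher. MEIS1 (247 and 542 reads, 0.90) had the highest value of the markers. Of the fibroblast markers, COL1A1 had 21 and 9 reads.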
